A study of Mus musculus with 30 samples.

Results

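The transcripts of 9 helper and regulatory T cell genes were followed in the epithelial-layer scrape of the mouse colon. They were taken as the rows of the gene count table that carry the symbols Cd3e, Cd4, Foxp3, Ctla4, Icos, Ifng, Il17a, Il22 and Il10, which makes 9 genes of 46078 in the table. The symbols matched 11 rows, of which 2 (second entries for Ctla4 and Icos on an alternative contig of chromosome 1) held 0 counts in all libraries and were not used. The study sequenced poly(A) RNA from 30 C57BL/6J mice, 5 in each of 6 groups. Mice were 5 to 10 weeks old at the start. Vehicle females and males received saline intraperitoneally and were killed at 9 weeks. AOM/DSS females and males received the colon carcinogen azoxymethane (AOM) once at 10 mg/kg, followed by 3 cycles of 2.5% dextran sulfate sodium (DSS), an irritant of the gut lining, in the drinking water, and were killed at 9 or 15 weeks after AOM. All mice were wild type and all tissue was non-tumor scrape. No vehicle mice of 15 weeks were among the samples, so treatment and elapsed time cannot be told apart at 15 weeks, and the comparisons of both time points with vehicle share the same vehicle libraries.

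T cells recognise antigen through a receptor that signals through the CD3 chains, and CD4 marks those that help or restrain other immune cells. Helper T cells are sorted by the cytokine they secrete: Th1 cells make interferon gamma (Ifng), which activates macrophages and antigen presentation, and Th17 cells make interleukin 17A (Il17a) and interleukin 22 (Il22), which call in neutrophils and strengthen the epithelial barrier. Regulatory T cells depend on the transcription factor Foxp3 and hold inflammation in check, in part through the inhibitory receptor CTLA-4 and the anti-inflammatory cytokine interleukin 10 (Il10), and ICOS is a costimulatory receptor that appears on activated T cells. Several of these genes are also used outside helper T cells. Cd3e is shared by all T cells, intraepithelial cytotoxic cells included, Cd4 is carried by some dendritic cells in the mouse, and Ifng, Il17a and Il22 are also made by innate lymphoid cells, natural killer cells or gamma delta T cells. In a bulk scrape, fewer cells of a type and less RNA per cell cannot be told apart.

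The 9 genes lie on 5 chromosomes of GRCm38: Cd3e at chr9:44998743-45009590, Cd4 at chr6:124864692-124888221, Foxp3 at chrX:7579676-7595243, Ctla4 at chr1:60887000-60915832, Icos at chr1:60977927-61000320, Ifng at chr10:118441047-118445892, Il17a at chr1:20730905-20734496, Il22 at chr10:118204942-118210047 and Il10 at chr1:131019845-131024974. Ctla4 and Icos, which arose from a common ancestral receptor, are neighbors on chromosome 1, and Ifng and Il22 lie near each other on chromosome 10. RefSeq promoter sequences were at hand for 6 of the 9 members (7 start sites, 2 of them of Foxp3). The 250 bases before the start are shown for Ifng, Il17a and Ctla4, the members with the largest rise from vehicle at 9 weeks, on build GRCm38.p6 and the plus strand, at chr10:118440796-118441045, chr1:20730655-20730904 and chr1:60908775-60909024. The last of these lies inside the gene's annotated span, upstream of the RefSeq start. Capitals mark matches on either strand to 3 motifs of factors that act in activated T cells: TTCNNNGAA (the GAS element bound by STAT proteins), TGANTCA (AP-1) and GGAAA (the NFAT core).
Ifng promoter: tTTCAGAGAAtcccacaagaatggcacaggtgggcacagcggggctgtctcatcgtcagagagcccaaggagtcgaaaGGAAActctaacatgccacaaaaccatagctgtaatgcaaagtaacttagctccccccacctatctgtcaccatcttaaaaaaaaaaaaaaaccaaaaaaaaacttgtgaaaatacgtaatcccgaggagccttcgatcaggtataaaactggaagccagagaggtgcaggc
Il17a promoter: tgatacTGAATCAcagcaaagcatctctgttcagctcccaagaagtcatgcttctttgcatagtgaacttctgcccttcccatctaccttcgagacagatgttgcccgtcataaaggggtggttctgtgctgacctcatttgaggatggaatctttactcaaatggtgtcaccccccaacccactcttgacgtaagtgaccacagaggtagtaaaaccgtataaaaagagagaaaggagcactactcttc
Ctla4 promoter: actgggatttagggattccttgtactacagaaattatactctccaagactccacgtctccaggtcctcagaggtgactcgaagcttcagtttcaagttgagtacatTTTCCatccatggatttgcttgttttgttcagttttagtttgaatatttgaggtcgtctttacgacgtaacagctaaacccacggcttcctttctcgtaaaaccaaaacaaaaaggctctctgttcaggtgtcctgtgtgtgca

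The Ifng window held 1 GAS match and 1 NFAT core, the Il17a window 1 AP-1 match, and the Ctla4 window 1 NFAT core. Over all 32851 promoter windows of the same length, 7.02% held a GAS match, 6.75% an AP-1 match and 55.6% an NFAT core. The GAS letters were also found in the window of the second Foxp3 start, where they overlap an NFAT core. A match is a description of the letters in these windows, and none of the windows was assayed here.

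All 9 genes were near the lower end of what these libraries could measure. Libraries held 9265804 to 30806392 counts over genes, with the lowest total in female vehicle replicate 5. Summed over the 30 libraries, Cd4 had 1555 counts, Cd3e 1196, Icos 509, Ctla4 471, Ifng 312, Foxp3 205, Il22 74 and Il10 63, with Il17a between Foxp3 and Il22. Cd3e and Cd4 were seen in every library and were the members that could be read mouse by mouse. Foxp3 never exceeded 23 counts in a library and reached 10 in 9 of 30, Ifng was at 0 in 13 libraries and Il17a in 19. Il22, with a highest value of 14 counts, and Il10, with a highest value of 8, did not pass the filter on low counts and are too low to judge, so 7 of the 9 members were tested. A count of 0 in a library allows up to 3 counts. As TPM, a level that corrects for transcript length, the median at 9 weeks of AOM/DSS (n = 10) ran from 0.836 for Cd3e and 0.748 for Cd4 through 0.453 for Ctla4, 0.331 for Icos, 0.312 for Ifng and 0.218 for Il17a down to 0.0763 for Il22, 0.0746 for Foxp3 and 0 for Il10. Each neighboring pair in that order overlapped in range, so the order of neighbors is not fixed by these data. The TPM estimate was listed at 0 for some libraries with counts (for Cd3e in male vehicle replicate 5, with 5 counts, and for Il17a in the males of 15 weeks with 3 and 5 counts), and CPM values, counts scaled to the library total, are given from here on.

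The labelled tissue was borne out by its markers, since the 8 epithelial genes summed to at least 10380 CPM in each library, whereas the 9 members together stayed between 1.72 and 20.1 CPM. Male vehicle replicate 1 stood apart, with smooth muscle markers at a summed 5287 CPM against 33.2 in the lowest library of its group.

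At 9 weeks of AOM/DSS, the time point soon after the last DSS cycle, all 7 tested members were higher than in vehicle when females and males were averaged. Of all 16261 genes tested, 8.05% passed the same call upward (adjusted p under 0.05 and a log2 fold change beyond 0.4) and 3.97% downward. Cd3e and Cd4 rose least, the regulatory and costimulatory receptors rose more, and the effector cytokines, which were all but absent in vehicle, rose most. The median log2 change of all genes tested was -0.02. Foxp3, Ctla4, Ifng and Il17a passed the filter on low counts, which asks for 5 libraries above a set level, only through their libraries of 9 weeks (7, 9, 7 and 5 of 10, with 0 of 10 in vehicle), so the count of 7 is in part fixed by the filter, and Cd3e, Cd4 and Icos passed without them.

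**Figure D1:**
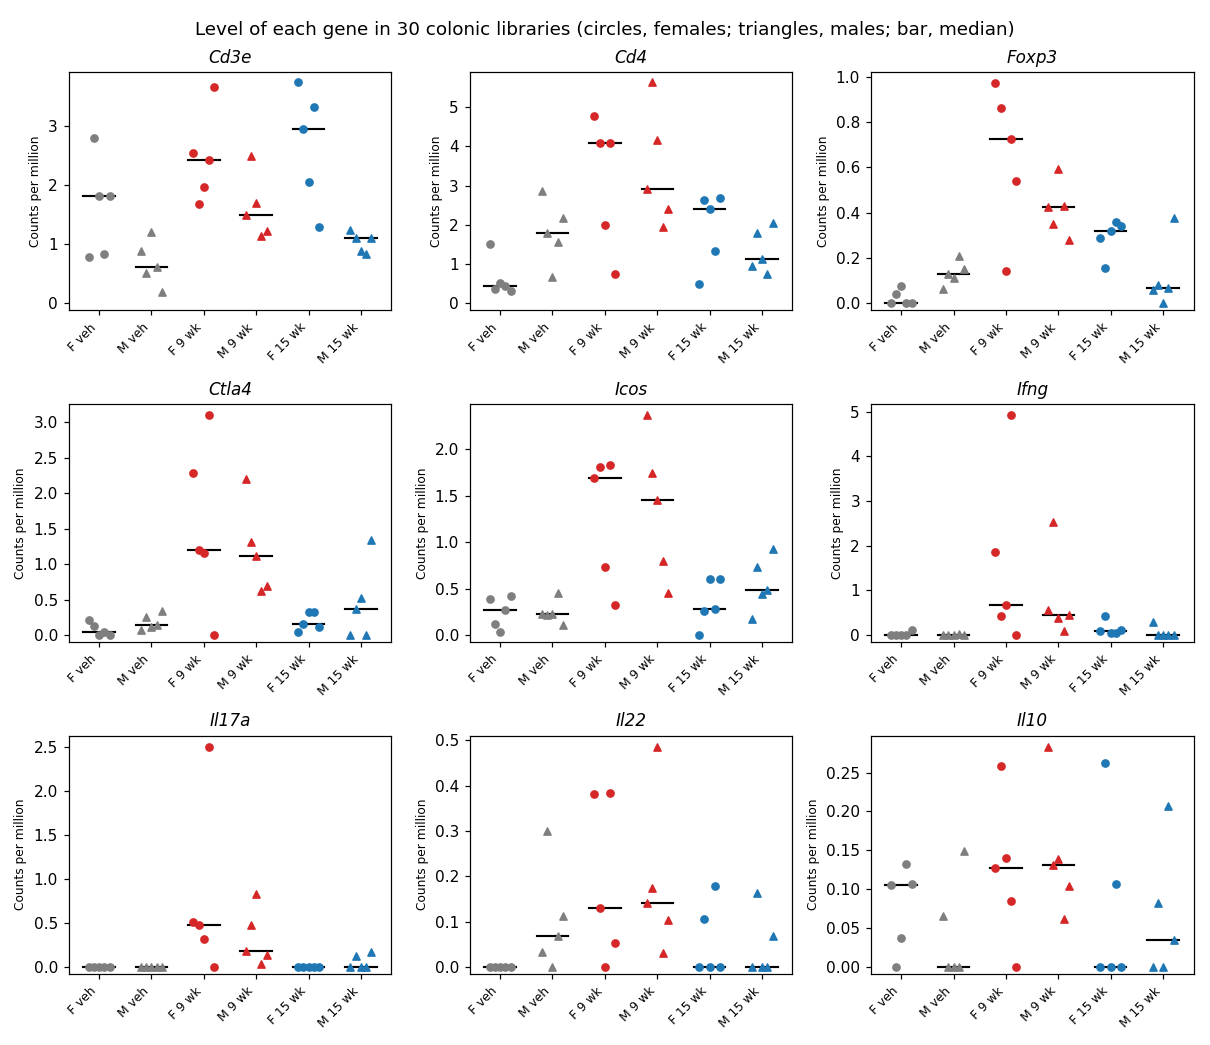
Level of each of the 9 genes in CPM (vertical axis, linear, a scale of its own for each gene) in the 6 groups of 5 mice; each point is 1 library and the bar is the group median. The 7 tested genes sit highest in the red groups of 9 weeks or, for Cd3e in females, at 15 weeks, Il17a is at 0 in all 10 vehicle libraries, and Il22 and Il10 stay below 0.5 CPM.

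Cd3e, the epsilon chain of the T cell receptor complex, stood at 0.775, 2.80, 1.81, 0.839 and 1.81 CPM in vehicle females and at 2.54, 1.68, 1.97, 2.42 and 3.66 CPM in females at 9 weeks. In males it rose from 0.878, 0.514, 1.20, 0.622 and 0.187 CPM to 1.49, 2.49, 1.70, 1.14 and 1.22 CPM. The female groups overlapped, and in males 4 of 5 treated libraries were above every vehicle library. The mean change over both sexes was 0.92 on the log2 scale (SE 0.27, adjusted p = 0.0195).

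Cd4, the coreceptor for MHC class II, was measured at 1.51, 0.365, 0.518, 0.442 and 0.320 CPM in vehicle females and at 4.78, 4.09, 2.0, 4.08 and 0.753 CPM in females at 9 weeks. In males the vehicle values were 2.86, 1.80, 0.674, 1.55 and 2.17 CPM and the values at 9 weeks 2.91, 5.63, 4.17, 1.93 and 2.40 CPM. The low treated female is replicate 5, and both sexes overlapped with their vehicle group. Cd4 was 1.58 log2 units higher (SE 0.36, adjusted p = 0.00251), with 2.26 in females (SE 0.52, adjusted p = 0.0106) and 0.91 in males (SE 0.49, adjusted p = 0.249).

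Foxp3, the lineage factor of regulatory T cells, had 0, 1, 2, 0 and 0 counts in the vehicle females and 2, 3, 3, 6 and 4 in the vehicle males. At 9 weeks it had 23, 20, 4, 17 and 10 counts in females and 12, 8, 17, 14 and 8 in males. In CPM, every treated library of each sex was above every vehicle library of that sex. The mean change was 2.99 log2 units (SE 0.47, adjusted p = 6.42e-05). Summed over libraries, the rate in females was 23.5 times that of vehicle with a 95% exact counting interval of 7.75 to 117, resting on 3 vehicle counts, and in males it was 3.17 times (1.84 to 5.71). Such intervals cover counting error only and take each read as independent. Duplicate reads were kept, so they are too narrow even for that.

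Ctla4 and Icos, the inhibitory and the activating member of the CD28 receptor family, rose in both sexes. Ctla4 had 6, 3, 0, 1 and 0 counts in vehicle females and 54, 28, 33, 73 and 0 in females at 9 weeks, and it went from 2, 6, 3, 4 and 9 counts to 62, 30, 32, 20 and 20 in males. Icos had 11, 3, 1, 6 and 4 counts in vehicle females against 40, 42, 21, 43 and 6 at 9 weeks, and 7, 5, 6, 13 and 3 against 67, 40, 42, 26 and 13 in males. In males neither gene overlapped in CPM between the groups, and in females both overlapped through replicate 5 of the treated group. For Icos in males the highest vehicle and the lowest treated library held 13 counts each, at 0.449 and 0.451 CPM. Ctla4 was 3.40 log2 units higher (SE 0.65, adjusted p = 0.000518) and Icos 2.44 (SE 0.46, adjusted p = 0.000398).

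Ifng, the Th1 cytokine, had 1 count in 1 vehicle library of each sex and 0 in the other 8. At 9 weeks its counts were 44, 10, 19, 116 and 0 in females and 16, 58, 11, 3 and 13 in males. In 9 of 10 treated mice Ifng was detected. By the listed values no treated male overlapped with the vehicle males, and female replicate 5 alone stayed within the vehicle range. Male replicate 4 had 3 counts, however, which a vehicle count of 0 also allows. The highest 2 (female replicate 4 and male replicate 2) stood at 4.93 and 2.53 CPM. Summed over libraries, the rate in females was 180 times that of vehicle with a 95% exact counting interval of 32.0 to 7161, and in males 97.6 times (17.1 to 3893), each resting on 1 vehicle count, and without female replicate 4 or male replicate 2 at 9 weeks it was 87.1 and 49.6 times (adjusted p of the fit over both sexes 5.00e-05).

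Il17a, the defining cytokine of Th17 cells, was at 0 in all 10 vehicle libraries. The counts at 9 weeks were 12, 11, 9, 59 and 0 in females and 5, 11, 24, 1 and 4 in males. All treated males and all treated females but replicate 5 were above the vehicle value of 0. Male replicate 4, with 1 count, was still within what a vehicle count of 0 allows. Female replicate 4 again held the highest value, at 2.51 CPM. With vehicle set to the limit of 3 counts per library, the rise was at least 4.07-fold over both sexes, at least 4.81-fold for females and at least 3.0-fold for males (adjusted p of the fit 0.00129). Single libraries carried these limits: without female replicate 4, which held 59 of the 91 counts in females, they were 2.44-fold over both sexes and 2.05-fold for females, and without male replicate 3, with 24 of 45 counts, 1.87-fold for males.

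Il22 and Il10 could not be judged. Il22, which acts on epithelial cells through a receptor that immune cells lack, had 0 counts in each vehicle female, 1, 7, 0, 2 and 3 in vehicle males, 9, 3, 0, 9 and 1 in females at 9 weeks and 4, 4, 14, 1 and 3 in males at 9 weeks. At 15 weeks it had 13 counts over 10 libraries, the same sum as in vehicle. Fitted with no filter on low counts, Il22 was 3.06 log2 units higher at 9 weeks (SE 0.93, adjusted p = 0.0378). Its near-identical copy Iltifb was listed at 0 in all 30 libraries, and how reads shared by both were counted is not given in the sources used here, so the Il22 counts are uncertain for that reason too. Il10 had 14 counts over the vehicle libraries, 35 at 9 weeks and 14 at 15 weeks, with no library above 8, and its change at 9 weeks in the fit with no filter was 1.17 (SE 0.73, adjusted p = 0.393).

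Within 1 sex, 6 members were called higher at 9 weeks in females (Cd4, Foxp3, Ctla4, Icos, Ifng and Il17a; 3.48% of all genes were called higher) and 5 in males (Cd3e, Ctla4, Icos, Ifng and Il17a; 5.26% of all genes called higher). Among these, Foxp3, Ctla4, Ifng and Il17a passed the filter on low counts only through their libraries of 9 weeks, so both counts are in part fixed by it. The members called differed in name between the sexes, but no difference of response between the sexes passed the test. The male minus female response was -2.76 for Foxp3 (SE 0.96, adjusted p = 0.600) and -1.35 for Cd4 (SE 0.70, adjusted p = 0.701). Foxp3 was the 1 member with an unadjusted p under 0.05 in edgeR, against 1205 of all 16261 genes. None passed in edgeR or DESeq2, and 0% of all genes were called. The counts within a sex rested on how the spread was estimated: with the compared groups' own libraries, 0 members were called in females and 2 in males. The share of all genes called in those fits is not given here, so the loss cannot be read as particular to the members. In males the count fell to 2 or 3 without any 1 of the 5 vehicle libraries or of treated replicates 1, 2 and 3.

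A further minimum of 1 FPKM, a length-corrected read rate on which the study's own calls rest, left Cd3e as the 1 member called at 9 weeks over both sexes (8.51% of all genes) and none within females (2.90%) or males (7.31%). The other 6 rose at levels under that minimum.

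Female replicate 5 at 9 weeks differed from its group. It had 0 counts of Ctla4, Ifng and Il17a, 6 of Icos and 14 of Cd4, but 68 of Cd3e, the highest count in the group. The summed macrophage and dendritic cell markers of the treated females ranged from 10.3 to 43.0 CPM and the neutrophil markers from 0.430 to 111 CPM. Without this library and the shallowest library, female vehicle replicate 5, the call for each of the 7 members at 9 weeks over both sexes was the same.

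At 15 weeks, Foxp3 alone among the 7 tested members was called higher than in vehicle over both sexes (4.29% of all genes were called higher and 7.02% lower). Its counts were 6, 3, 8, 10 and 9 in females and 1, 2, 0, 1 and 11 in males. All 5 treated females were above all vehicle females in CPM, and male replicate 5 was the single male above the vehicle males. The mean change was 1.60 (SE 0.51, adjusted p = 0.0307), made up of 3.26 in females and -0.06 in males. With no filter on low counts the adjusted p was 0.0503, Foxp3 was not called from the compared libraries alone, and the call was lost without male replicate 5 at 15 weeks, where the change was 0.99 and the adjusted p 0.214, and without female vehicle replicate 1, female vehicle replicate 4 or male vehicle replicate 1. No member was called within females (0.117% of genes) or within males (12.5% of genes). In edgeR, Cd4 and Foxp3 had an unadjusted p under 0.05 in females, against 1776 of all 16261 genes. In males no member did, against 5114 genes. DESeq2 called Foxp3 in females and none in males.

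The other members were not called against vehicle, and their levels differed between the sexes in where they stood: the female median of Cd3e was above that of 9 weeks, and the male median of Cd4 was below that of vehicle. Cd3e was at 3.74, 2.94, 2.05, 3.32 and 1.29 CPM in females and at 1.25, 1.10, 0.886, 0.827 and 1.10 CPM in males at 15 weeks, a change from vehicle of 0.66 (SE 0.27, adjusted p = 0.0869). Cd4 was at 0.479, 2.63, 2.41, 1.32 and 2.69 CPM in females and at 0.949, 1.80, 1.13, 0.758 and 2.05 CPM in males, a change of 0.56 (SE 0.35, adjusted p = 0.268). Both genes overlapped with vehicle in each sex. The change was 1.26 for Ctla4 (SE 0.67, adjusted p = 0.185) and 0.89 for Icos (SE 0.46, adjusted p = 0.175). Ifng had 2, 8, 1, 1 and 3 counts in females and 5, 0, 0, 0 and 0 in males, 10.9 times the vehicle rate with an exact counting interval of 2.64 to 95.7 (adjusted p of the fit 0.123). Il17a was at 0 in every female and had 3 and 5 counts in 2 males, a sum below what the limit of 3 counts in each vehicle library would allow.

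**Figure D2:**
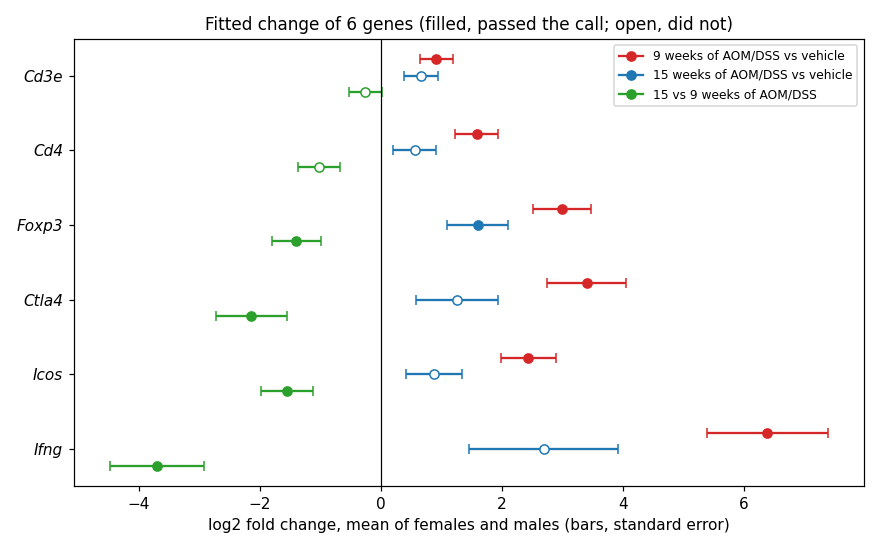
Fitted log2 fold change (horizontal axis) of 6 members for 9 weeks against vehicle, 15 weeks against vehicle and 15 against 9 weeks, averaged over females and males (5 mice each per group), with the standard error as bars. Filled points passed the call and open points did not: all 6 passed at 9 weeks, Foxp3 alone passed at 15 weeks, and Ifng, whose vehicle groups hold 2 counts in all, has a fitted value that depends on the prior count.

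From the earlier to the later time point of AOM/DSS, 5 members fell: Foxp3, Ctla4, Icos, Ifng and Il17a (3.83% of all genes were called lower). Foxp3, Ctla4, Ifng and Il17a passed the filter on low counts only through their libraries of 9 weeks. At 15 weeks 0, 2, 0 and 0 of 10 libraries were above its level, so the count of 5 is in part fixed by the filter. The log2 change was -1.39 for Foxp3 (SE 0.41, adjusted p = 0.0454), -2.14 for Ctla4 (SE 0.59, adjusted p = 0.0398) and -1.55 for Icos (SE 0.43, adjusted p = 0.0400). Ifng was -3.70 (SE 0.78, adjusted p = 0.0135), going from 290 to 20 counts. Il17a went from 136 to 8 counts and was at least 5.92-fold lower in females, where all libraries of 15 weeks were at 0, and at least 2.52-fold lower without female replicate 4 at 9 weeks. Cd4 was -1.03 (SE 0.35, adjusted p = 0.0781) and Cd3e -0.26 (SE 0.27). Each of the 20 libraries was left out in turn. Ifng was then called 20 times, Il17a 19 times, Ctla4 and Icos 8 times each and Foxp3 4 times. The count of called members fell to 1 without female replicate 4 at 9 weeks, the library highest in Ctla4, Icos, Ifng and Il17a counts among the females. It fell to 2 or 3 without female replicates 1 or 2 or male replicates 1, 2 or 3 at 9 weeks, and without female replicates 1, 2 or 4 or male replicates 1, 2, 3 or 4 at 15 weeks.

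Some markers of other cells in the scrape were also lower at the later time point. Over both sexes, 3 of 7 mesenchymal markers, 2 of 6 macrophage and dendritic cell markers, 5 of 5 neutrophil markers and 1 of 8 B cell and follicle markers were called lower at 15 than at 9 weeks. The summed mesenchymal markers ranged from 43.2 to 275 CPM in females at 9 weeks and from 18.4 to 79.6 CPM at 15 weeks, with medians of 189 and 63.5 CPM in males. The summed follicle markers ranged from 9.41 to 128 and 27.8 to 89.4 CPM at 9 weeks and from 2.78 to 44.7 and 7.30 to 98.0 CPM at 15 weeks. With the mean level of either list as a covariate, none of the members was called between the time points, nor was any other gene. The fitted change of the 5 members named above was smaller with either list. With the follicle and the mesenchymal list it was -3.39 and -3.32 for Ifng (-3.70 without) and -1.32 and -1.09 for Foxp3 (-1.39 without). It was -1.28 and -0.97 for Ctla4 (-2.14 without) and -0.77 and -0.86 for Icos (-1.55 without). For Il17a, at 0 in all females of 15 weeks, it was -3.65 and -3.23 (-4.72 without). Of the members not called, Cd4 was at -0.48 and -0.10 (-1.03 without). Cd3e moved the other way, to -0.58 and -0.62 (-0.26 without). The part of these cells in the decline was not tested.

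The level of each member was also set against Cd3e within each library, as a difference of log2 CPM with a prior count of 2. At 9 weeks against vehicle, 4 of 6 ratios were higher: Foxp3 by 0.97 (SE 0.35, adjusted p = 0.0144), Ctla4 by 1.56 (SE 0.61, adjusted p = 0.0209), Ifng by 1.92 (SE 0.53, adjusted p = 0.00289) and Il17a by 1.29 (SE 0.45, adjusted p = 0.0110), each by limma. These are the 4 members that passed the filter only through their libraries of 9 weeks, and the vehicle ratios of Ifng, with 2 counts, and Il17a, with 0, are set by the prior count, so these differences are given as values and not as a change apart from T cells in general. Cd3e itself rose, and on this scale 78.7% of all genes were called lower and 1.85% higher. Icos was at 1.04 (SE 0.49, adjusted p = 0.050) and Cd4 at 0.54 (SE 0.48, adjusted p = 0.291). The prior count pulls low members toward each other, so these differences are smaller than the changes in CPM. At 15 weeks none of the 6 ratios differed from vehicle by limma (59.7% of all genes called). At an unadjusted p under 0.05 there were 0 of the 6, against 11107 of 16260 genes. From 9 to 15 weeks none was called (0.0677% of all genes). At an unadjusted p under 0.05 by limma there were 5 of 6, against 1723 of 16260 genes. Their values were -0.93 for Foxp3, -1.20 for Icos, -1.72 for Ctla4, -1.73 for Il17a and -1.99 for Ifng. All but Icos passed the filter only through their libraries of 9 weeks, so the count of 5 is in part fixed by the filter. The Il17a ratios of females at 15 weeks, with 0 counts, are set by the prior count. Each of the 20 libraries was left out in turn, and a ratio was called in 1 of these fits. It was the fit without female replicate 5 at 9 weeks, where 3 of the 6 (Ctla4, Ifng and Il17a) were called lower. The share of all genes called in that fit is not given here.

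**Figure D3:**
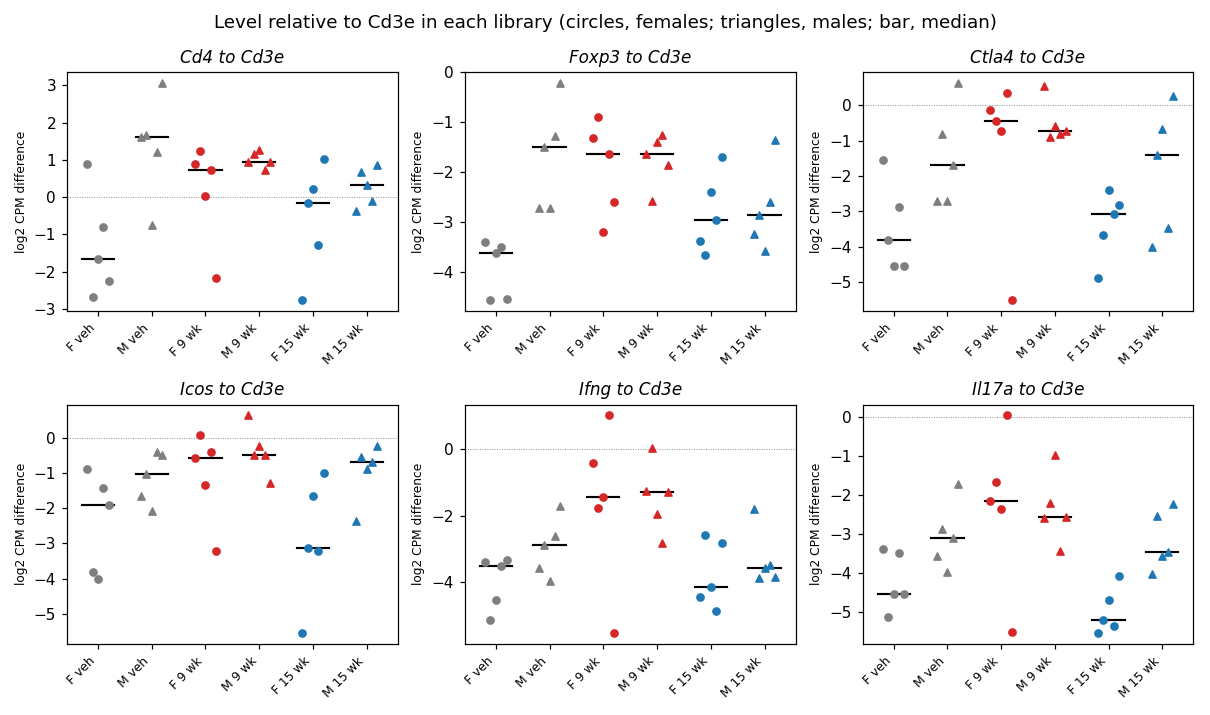
Level of 6 members relative to Cd3e in each library, as the difference of log2 CPM (vertical axis, prior count of 2), in the 6 groups of 5 mice; the bar is the group median and the dotted line marks equal levels. Female replicate 5 at 9 weeks is the lowest point of its group in each panel except Foxp3, and the Cd4 ratio of vehicle males (median 1.62) sits above that of vehicle females (median -1.66).

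Females and males were compared within each condition. No member passed in vehicle (0.252% of all genes called), at 9 weeks (0.0492%) or at 15 weeks (0.221%). Cd3e was the member nearest to a difference: its median was 1.81 CPM in females and 0.622 in males with vehicle, 2.42 and 1.49 at 9 weeks, and 2.94 and 1.10 at 15 weeks. At 15 weeks the lowest female, at 1.29 CPM, was above the highest male, at 1.25 CPM. The male minus female difference was -1.23 in vehicle (SE 0.39, adjusted p = 0.0952) and -1.36 at 15 weeks (SE 0.39, adjusted p = 0.112) by edgeR. DESeq2 called this 1 member in both, with adjusted p = 0.0432 and 0.0311. Cd4 and Foxp3 pointed the other way in vehicle, at 1.47 (SE 0.51, adjusted p = 0.123) and 2.13 (SE 0.80, adjusted p = 0.149), and with female vehicle replicate 1 left out Cd3e and Cd4 were both called. Without male vehicle replicate 3, Cd3e was called. In vehicle 3 of the 7 members had an unadjusted p under 0.05, against 3035 of all 16261 genes. At 9 weeks it was 0 members against 630 genes, and at 15 weeks 1 member against 2009 genes. DESeq2 called 0 members at 9 weeks. The cytotoxic and intraepithelial lymphocyte markers summed to 2.96 to 24.6 CPM in vehicle females and 1.66 to 12.2 CPM in vehicle males, and to 12.6 to 39.4 and 5.23 to 11.1 CPM at 15 weeks. The male minus female response at 15 weeks was -3.32 for Foxp3 (SE 1.01, adjusted p = 0.445) and -1.96 for Cd4 (SE 0.71, adjusted p = 0.495). These were the 2 members with an unadjusted p under 0.05 in edgeR, against 1245 of all 16261 genes. By edgeR or DESeq2, 0 members were called (0.00615% of all genes by edgeR).

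Cd3e and Cd4 did not follow each other across the 30 libraries (Spearman correlation 0.06). With the epithelial list Cd3e was at 0.60 and Cd4 at -0.39. With the mean of each group taken out, these were 0.63 and -0.43. Cd3e followed the cytotoxic and intraepithelial lymphocyte list (0.91) with 0.51 for the T cell identity list and -0.05 for the macrophage and dendritic cell list, whereas Cd4 followed the macrophage and dendritic cell list and the regulatory T cell list alike (0.89 each), with 0.85 for the neutrophil list, 0.80 for the costimulatory ligands, 0.72 for the mesenchymal list, 0.66 for the T cell identity list and 0.20 for the cytotoxic list. With the mean of each group taken out, the values were 0.69 for Cd3e with the cytotoxic list, 0.75 for Cd4 with the macrophage and dendritic cell list, 0.77 for Cd4 with the regulatory T cell list, 0.78 for Cd4 with the costimulatory ligands, 0.72 for Cd4 with the neutrophil list, 0.14 for Cd3e with the T cell identity list and -0.23 for Cd3e with Cd4. Foxp3 itself followed the regulatory T cell list less closely than Cd4 did, at 0.65, and at 0.21 with group means taken out. These are descriptions over libraries that share groups and depth.

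**Figure D4:**
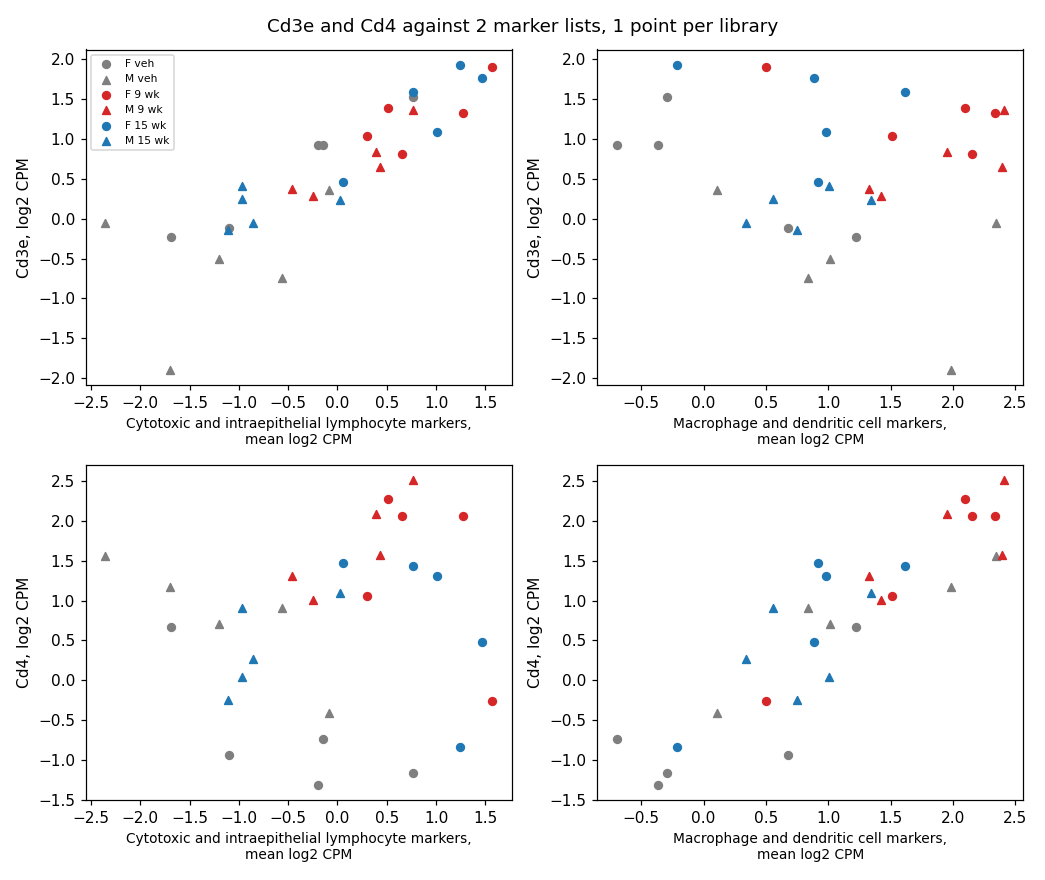
Cd3e (top) and Cd4 (bottom), in log2 CPM, against the mean log2 CPM of the cytotoxic and intraepithelial lymphocyte markers (left) and of the macrophage and dendritic cell markers (right); each point is 1 library, circles are females, triangles males, and color gives vehicle, 9 or 15 weeks. Cd3e rises with the left list and Cd4 with the right list (Spearman 0.91 and 0.89), while the other pairs scatter.

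The genes whose levels ran closest to each member, by Spearman correlation over the 30 libraries, were in part of other cells. For Cd3e they were Cd7 (0.93), Cd8a (0.93) and Ctsw (0.92), genes of cytotoxic lymphocytes. For Cd4 they were Dnase1l3 (0.95), Mpeg1 (0.93) and Lilrb4 (0.93), genes of macrophages and dendritic cells. Ctla4 ran with Il1b (0.90), Slfn8 (0.90) and Csf3r (0.87), of which Il1b and Csf3r belong to myeloid cells, and Icos with Tnfrsf11b (0.89), Slc7a11 (0.88) and the leukocyte integrin Itgal (0.87). Foxp3 ran with Sh2d2a (0.86), an adaptor of T cells, Serpina3g (0.84) and Pxdc1 (0.83). Ifng ran with Adgrg5 (0.83), Ido1 (0.81), which interferon gamma induces, and Igkv4-61 (0.80), and Il17a with the neutrophil chemokine Cxcl3 (0.88), Il1f9 (0.85) and 1500009C09Rik (0.80). With group means removed, the correlation stayed at 0.83 for Cd4 with Mpeg1 and at 0.73 for Cd3e with Cd8a, and was 0.33 for Ifng with Adgrg5 and 0.44 with Ido1.

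Other genes of T cells moved at 9 weeks as well. Of 20 genes of the T cell receptor and T cell identity, 19 were tested and 15 were higher than in vehicle over both sexes, 0 lower, with a median of 1.36. Trac, the constant part of the alpha chain, rose by 1.57 (SE 0.21, adjusted p = 7.92e-06), Cd3g, a partner of Cd3e, by 1.06 (adjusted p = 0.0471), and the coreceptors Cd6 and Cd5 by 2.12 (adjusted p = 0.00438) and 1.93 (adjusted p = 0.00925). At 15 weeks 7 of 19 were called higher, among them the receptor kinase Zap70 by 1.27 (adjusted p = 0.0135) and the signaling chain Cd247 by 1.03 (adjusted p = 0.0315). Of 9 tested cytotoxic and intraepithelial lymphocyte markers, 5 were higher at 9 weeks and 0 at 15 weeks, and of 5 innate lymphoid and natural killer markers 2 were higher at 9 weeks and 1 at 15 weeks. Cd8b1, a coreceptor chain of cytotoxic T cells, rose by 2.81 (adjusted p = 0.00166) and Eomes, a factor of natural killer and cytotoxic cells, by 2.22 (adjusted p = 0.0118). The part of these cells in the Cd3e and Ifng values was not tested. Of the remaining marker lists, 2 of 6 macrophage and dendritic cell genes, 0 of 8 B cell and follicle genes, 0 of 7 mesenchymal genes, 0 of 6 smooth muscle genes and 1 of 8 epithelial genes were higher at 9 weeks and none lower, and at 15 weeks 3 mesenchymal and all 6 smooth muscle genes were lower than in vehicle.

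Of 16 genes linked with regulatory T cells, 6 were higher and 1 lower at 9 weeks. Il2ra, the high-affinity interleukin 2 receptor chain, rose by 2.82 (SE 0.33, adjusted p = 9.36e-07), the interleukin 33 receptor Il1rl1 by 2.60 (adjusted p = 0.000404) and the checkpoint receptor Tigit by 2.42 (adjusted p = 0.00395). Gpr83, a receptor that neurons also express, fell by 2.28 (adjusted p = 0.0305). Of the 5 genes of the interleukin 10 list, 3 were higher at 9 weeks, among them the receptor chain Il10ra at 1.75 (adjusted p = 0.00302).

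On the Th1 side, 4 of 10 tested genes were higher at 9 weeks and 0 at 15 weeks. The interleukin 18 receptor chain Il18rap rose by 2.52 (SE 0.45, adjusted p = 0.000254), the interleukin 12 receptor chain Il12rb1 by 2.11 (adjusted p = 0.00119), its signal transducer Stat4 by 1.53 (adjusted p = 0.00306) and the Th1 lineage factor Tbx21 by 1.34 (adjusted p = 0.0125). All 9 interferon gamma targets were higher at 9 weeks: the chemokine Cxcl9 rose by 5.23 (SE 0.53, adjusted p = 1.26e-07), the tryptophan-degrading enzyme Ido1 by 3.87 (adjusted p = 4.73e-07) and the MHC class II regulator Ciita by 3.30 (adjusted p = 5.60e-06). At 15 weeks, when Ifng was at 20 counts over 10 libraries, 7 of the 9 were still called higher, Cxcl9 by 3.79 (adjusted p = 4.54e-05). Type I interferon induces several of these genes too.

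On the Th17 side, 4 of 12 tested genes were higher at 9 weeks. Il1b and Il6, cytokines that promote Th17 cells, rose by 6.88 (adjusted p = 5.25e-06) and 6.27 (adjusted p = 0.000452), and Batf, a factor that Th17 cells need, by 2.24 (adjusted p = 0.00235). The list did not move in 1 direction. At 15 weeks Il1b was higher than in vehicle, at 2.51 (adjusted p = 0.0456), and Rora was lower, at -1.53 (adjusted p = 0.00109). All 5 neutrophil markers, cells that Il17a is known to recruit, were higher at 9 weeks with a median of 5.95. For Il22, 2 of 8 genes of its receptor and targets were higher at 9 weeks, Socs3 by 2.14 (adjusted p = 8.03e-07) and Stat3 by 0.41 (adjusted p = 0.00260), both of which respond to other cytokines as well.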

How the data were processed

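RNA was taken by the authors from snap-frozen epithelial-layer scrapes, and poly(A) stranded libraries were sequenced. Per the labels and the study's methods, reads were trimmed with Trim Galore after bcl2fastq 2.20.0.422, aligned to mm10 with STAR and counted per gene with featureCounts; duplicates were kept, so counts are not independent molecules. The raw count table as deposited held 46078 genes in 30 libraries. TPM and FPKM values per library were deposited as StringTie estimates, and sums over repeated gene lines were taken (11 to 20 lines repeated per library).

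Counts were tested with edgeR 4.0.16 (quasi-likelihood, TMM scaling, filterByExpr, R 4.3.3) in 1 model of 6 groups over all 30 libraries, with Benjamini-Hochberg adjustment over 16261 genes and 12 comparisons adjusted separately. A call needed adjusted p under 0.05 and a log2 fold change beyond 0.4. Ratios to Cd3e were tested with limma 3.58.1 on log2 CPM (prior count 2). Every p-value named as adjusted comes from these fits or, where stated, from DESeq2 1.42.0. Counting intervals are exact, conditional on the summed counts, at 95%. The fit was tested on simulated data for 9 weeks against vehicle over 16261 genes and recovered 43 of 50 genes at 2-fold and 50 of 50 at 4-fold higher, with 7 false calls. The changed genes were drawn at random from all tested genes, with 1 spread for all. These rates therefore do not carry over to the members, which are at low counts and vary more between mice. Marker list scores are means of log2 CPM.

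The 9 members, the gene lists and the tests were chosen with earlier results of these data known. Named genes are the members, up to 3 genes a list and direction with the largest called change from vehicle at 9 or 15 weeks, and the 3 tested genes with the highest Spearman correlation to each member; Trac, Cd3g and Tbx21 were added after their values were seen. No 2 libraries of a group agreed within sampling noise. The 5 mice per group are separate animals, by the study's methods. Alternatives are given in the closing section. The result of 1 listed gene is not reported here.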

Additional observations from a re-analysis of the deposited data

Results flagged for a closer look

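Among 42 groups of 5 libraries with a tested member, 5 held a library set apart from the other 4 by more than 0.71 of the group's range. Chance gives about 1 in 20 for normally distributed values, which counts this sparse are not. Ctla4 in female replicate 5 at 9 weeks was at -3.62 log2 CPM (0 counts), below the rest of its group. Foxp3 in female replicate 2 at 15 weeks was at -2.06 log2 CPM (3 counts), the lowest of its group. For Ifng the library was the 1 with any count in its group: female vehicle replicate 5 at -2.41 (1 count, in the shallowest library), male vehicle replicate 4 at -3.11 (1 count) and male replicate 1 at 15 weeks at -1.40 (5 counts). With the rest of the group at 0 the gap fills the range whatever the count, so the Ifng groups cannot be set against that rate.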

How the results depend on the processing

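The 7 calls at 9 weeks over both sexes held under DESeq2, RLE size factors, no filter, both covariates, the compared libraries alone, the replicate block and each left-out library, with Il22 as an eighth under DESeq2 and no filter, and fell to 1 (Cd3e) with the FPKM minimum of 1. That minimum left 0 members called in the other comparisons of treatment or time. At 15 weeks over both sexes, DESeq2 gave 2 calls (Foxp3 and Ifng), the mesenchyme score 2 (Cd4 and Foxp3), and the compared libraries alone, no filter and the replicate block 0. From 9 to 15 weeks, no filter gave 2 calls, the replicate block 1 (Ifng), and the follicle B cell or mesenchyme score 0. In females at 9 weeks, the compared libraries alone gave 0, the follicle B cell score 2 and the mesenchyme score 1. In males at 9 weeks, the compared libraries alone gave 2, no filter 3, the replicate block 2 and the follicle B cell score 3. DESeq2 called 1 member in females at 15 weeks (Foxp3) and 1 between the sexes in vehicle and at 15 weeks (Cd3e). For most of these settings the share of all genes called is not given here. A lost or gained call can therefore not be read as particular to the members. The causes were not tested.

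With 1 library left out, the calls ranged from 0 to 2 at 15 weeks over both sexes, 1 to 6 from 9 to 15 weeks, 4 to 6 in females and 2 to 5 in males at 9 weeks, 0 to 2 between the sexes in vehicle, and 0 to 3 for the ratio to Cd3e from 9 to 15 weeks. In males at 15 weeks, Foxp3 (-0.06) ranged from -1.29 to 0.28, with 0.16, 0.10, 0.06, 0.28 and 0.06 where it turned positive, and Ifng (2.14) from -1.29 to 3.41. The mesenchyme score turned Cd4 to 0.80 and Foxp3 to 0.25 there.

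Replicate numbers gave no sign of pairing: deviations of 75 same-numbered pairs correlated at -0.58 to 0.47 (median -0.03, 12 over 0.1), so the block is reported here alone, where it lowered the counts named above and left 4 calls in females at 9 weeks. Leaving out both female vehicle replicate 5 and female replicate 5 at 9 weeks, chosen after seeing the data, moved no count by more than 1.5 times. Depth limits Il22 and Il10 in all groups, and Ifng, Il17a and Foxp3 outside 9 weeks.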

Other observations

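Of 6 tested costimulatory ligands, 5 were higher at 9 weeks than in vehicle over both sexes: Cd86 by 2.08 (SE 0.48, adjusted p = 0.00303), Cd80 by 1.98 (SE 0.49, adjusted p = 0.00533) and Pdcd1lg2, a ligand of the receptor PD-1, by 2.40 (adjusted p = 0.00599), beside Cd40 and Cd274. Cd80 and Cd86 are the ligands of Ctla4, and both were lower at 15 than at 9 weeks, at -1.67 (adjusted p = 0.0429) and -1.87 (adjusted p = 0.0272). At 15 weeks 1 of 6, Cd274, was called higher than in vehicle, by 0.54 (adjusted p = 0.0397).

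Of 6 Th2 genes 3 were tested, and 2 were higher at both time points. Gata3, the Th2 lineage factor, which innate lymphoid and regulatory T cells also use, rose by 4.08 at 9 weeks (SE 0.59, adjusted p = 1.68e-05) and 2.51 at 15 weeks (SE 0.58, adjusted p = 0.00624), and the interleukin 4 receptor chain Il4ra by 1.59 (adjusted p = 1.33e-07) and 1.05 (adjusted p = 0.000167). The other 3 did not pass the filter on low counts.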
